A study of Mus musculus with 3 samples.

Results

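KD4 and KD9 are separate knockdown lines of the same parent, E3 mouse embryonic stem cells (ESCs), and here the KD4 culture was set against the KD9 culture gene by gene. Both lines carried short hairpin RNAs (shRNAs) against a region shared by the 5 Usp17l genes, which encode deubiquitinases, and both were sampled at passage 7. The members are the 2 labelled knockdown samples of the 3 samples in the RNA-seq series, and the third sample, the empty vector control, was left out of the comparison. Each line was grown from a picked colony after puromycin selection, so each is 1 clone, and which shRNA each line carries could not be taken from the labels or methods. The ESCs were kept on mouse embryonic fibroblast (MEF) feeders, so RNA of feeder cells can be in both cultures. The deposited table holds 2 columns for KD4 and 2 for KD9, written below as KD4 column 1 and so on. The labels name 1 sample per line, and therefore the columns were treated as repeat values of 1 sample and not as replicates of a condition. Differences between the lines have no replicate check, no p-value is given for them, and clone, culture, shRNA and library cannot be told apart.

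Mouse ESCs express the transcription factors Pou5f1 (Oct4), Sox2 and Nanog, which hold the cells in the pluripotent state. Fibroblasts secrete collagens and other matrix proteins and, when stimulated, release chemokines. Interferons act through transcription factors such as Stat2 and Irf9, which bind a short DNA element in the promoters of interferon-stimulated genes, and the products of these genes sense viral RNA, block viral replication and load peptides onto MHC class I. ESCs are known to respond to interferon only weakly, whereas fibroblasts respond strongly.

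All values are deposited TPM, read counts divided by gene length and scaled to the same total in every column. A gene's difference is the mean of its 2 KD4 columns minus the mean of its 2 KD9 columns on log2(TPM + 0.1), so that 1 means 2-fold higher in KD4 and -1 means 2-fold lower in KD4, and the added 0.1 understates the change of low genes. Of the 32545 genes in the table, 19737 had 0.5 TPM or more on average over both lines and were compared. A low gene can pass this minimum through the line where it is higher, and such genes are more easily counted as different. A gene was counted as higher or lower in KD4 when each of the 4 differences between a KD4 column and a KD9 column was beyond 2-fold in the same direction. TPM keeps no depth, so the depth of each library is unknown and no counting interval can be given.

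The genes of the innate immune response and of the fibroblast matrix were lower in KD4 than in KD9, and a smaller set of genes, with Otx2, Dnmt3b and Dnmt3l among them, was higher in KD4. By the rule of 2-fold in all 4 pairs of columns, 166 genes were higher in KD4 (0.841% of the genes compared) and 967 were lower (4.90%). At a mean of 5 TPM or more the counts were 40 and 493 of 12857 genes. The split was also lopsided at 1.5-fold in every pair, with 698 genes higher in KD4 and 1876 lower. It turned when it was asked only that the columns of the lines not overlap. Then 7655 genes (38.8%) were higher in KD4 and 5880 (29.8%) were lower. The median difference over all genes was 0.06.

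The columns of a line were closer to each other than to those of the other line. Among genes with a mean of 5 TPM or more, KD4 column 1 against KD9 column 1 had 813 genes over 2-fold apart, and the other cross pairs had 781, 921 and 937. The 2 columns of KD4 were over 2-fold apart at 292 of these genes, and the 2 columns of KD9 at 96. The Pearson r over the 19737 genes, a correlation across genes that share a library, was 0.954 between the KD4 columns, 0.966 between the KD9 columns and 0.928 to 0.937 across lines. The direction also differed: across lines, the KD4 column was lower at 631 to 711 genes and higher at 150 to 226. Within KD4, column 1 was lower than column 2 at 132 genes and higher at 160, and within KD9 lower at 51 and higher at 45.

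**Figure D1:**
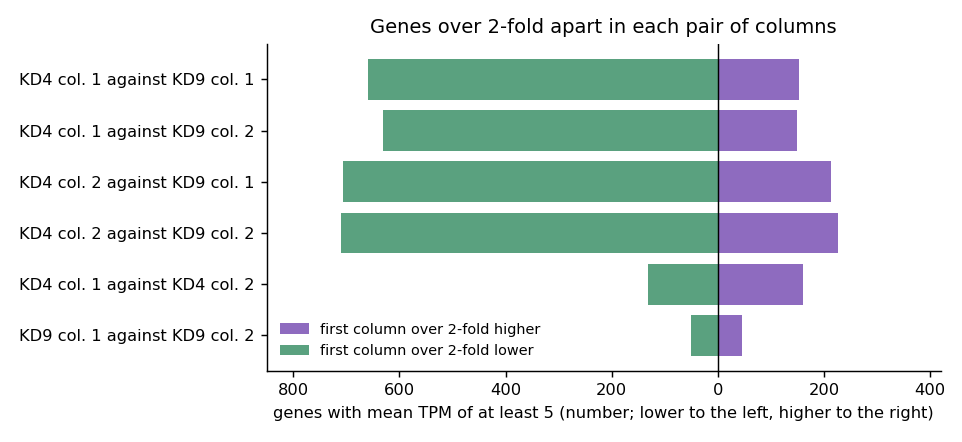
Number of genes over 2-fold apart in each pair of columns, among 12857 genes with a mean of 5 TPM or more (horizontal axis, genes lower in the first-named column to the left, higher to the right). The 4 cross pairs have 631 to 711 genes lower in KD4, against 292 genes in all between the columns of KD4 and 96 between those of KD9.

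The promoters of the genes that were lower in KD4 are shown first for the interferon-stimulated genes, since their shared element is the sequence feature these genes are known by. In the RefSeq promoter table (GRCm38.p6, 250 bases before to 50 bases after each start), 19 of the 26 interferon-stimulated genes on the list had an entry. The windows were searched on both strands for AANNGAAA, the letters that interferon regulatory factors are known to contact and that the interferon-stimulated response element contains, allowing matches to overlap. In the windows below the matches are in capitals and all other bases in lower case, each read 5′ to 3′ on the strand of the gene. Isg15 lies at chr4:156200769-156201068 on the minus strand, Oas1a at chr5:120907476-120907775 on the minus strand, Ifit3 at chr19:34583279-34583578 on the plus strand and Gbp2 at chr3:142620413-142620712 on the plus strand.
Isg15: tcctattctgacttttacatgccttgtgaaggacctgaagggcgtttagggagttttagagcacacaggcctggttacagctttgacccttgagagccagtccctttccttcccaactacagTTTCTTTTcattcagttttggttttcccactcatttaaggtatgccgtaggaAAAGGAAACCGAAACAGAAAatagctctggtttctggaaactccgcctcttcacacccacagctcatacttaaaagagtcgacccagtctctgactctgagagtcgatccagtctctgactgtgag
Oas1a: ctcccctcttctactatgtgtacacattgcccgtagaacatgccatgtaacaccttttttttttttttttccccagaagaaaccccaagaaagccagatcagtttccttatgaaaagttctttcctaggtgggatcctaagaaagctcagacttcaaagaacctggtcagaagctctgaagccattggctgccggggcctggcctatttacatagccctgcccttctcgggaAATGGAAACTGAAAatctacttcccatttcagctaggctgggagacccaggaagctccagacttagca
Ifit3: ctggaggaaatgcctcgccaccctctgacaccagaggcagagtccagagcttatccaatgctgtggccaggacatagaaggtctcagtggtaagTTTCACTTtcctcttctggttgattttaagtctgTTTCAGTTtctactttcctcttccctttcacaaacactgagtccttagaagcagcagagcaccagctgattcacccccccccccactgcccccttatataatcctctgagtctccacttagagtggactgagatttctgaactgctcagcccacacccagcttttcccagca
Gbp2: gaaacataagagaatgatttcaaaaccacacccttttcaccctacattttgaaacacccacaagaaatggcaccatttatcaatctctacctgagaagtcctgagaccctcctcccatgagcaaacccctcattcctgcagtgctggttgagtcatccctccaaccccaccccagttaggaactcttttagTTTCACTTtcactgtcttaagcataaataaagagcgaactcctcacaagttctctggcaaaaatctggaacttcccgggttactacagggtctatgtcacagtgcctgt

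Isg15 held 4 matches in this window, 3 of them overlapping, Oas1a 2 overlapping ones, Ifit3 2 separate ones and Gbp2 1. On the list, 16 of 23 windows (69.6%) held a match, belonging to 15 of 19 genes. Of all 32851 promoter windows in the table, 23.9% held one, and of the windows of the genes compared, 17.8%. Among the genes lower in KD4, 215 of 656 windows (32.8%) held a match, and 199 of 633 (31.4%) did when the listed interferon-stimulated genes were left out. The list does not hold every interferon-induced gene, Iigp1 for one. Of the fibroblast list, 6 of 19 windows (31.6%) held a match, and of core pluripotency 3 of 13 (23.1%). Antigen presentation had 6 of 11, and chemokines and interleukins 4 of 12. Among the genes higher in KD4, 13 of 65 windows held one. These 8 letters were chosen after the same windows had been searched with a longer form of the element. A match is a description of letters and not evidence of binding, and a window without one says nothing about the factor.

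Interferon-stimulated genes were lower in KD4 as a group. All 26 on the list were measured, and 25 were over 2-fold lower in KD4 in every pair of columns, where the share over all genes was 4.90%. The median difference of the list was -2.34, with -2.38 to -2.30 over the 4 pairs of columns, beside 0.06 for all genes. Together the 26 genes summed to 580 and 604 TPM in the KD4 columns and to 2728 and 2698 TPM in the KD9 columns.

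Among the effectors, Isg15, a ubiquitin-like protein, had 125 and 139 TPM in KD4 and 676 and 702 TPM in KD9, a difference of -2.38. Bst2 (tetherin), which holds budding virus at the cell surface, had 198 and 205 TPM in KD4 and 819 and 800 TPM in KD9. Ifit3, which binds viral RNA together with Ifit1, had 14.8 and 16.99 TPM in KD4 and 239 and 237 TPM in KD9, the largest gap of the Ifit genes on the list at -3.90. These genes were low in both KD4 columns and high in both KD9 columns, with no overlap. Its near-identical neighbour Ifit3b had 3.31 and 3.10 TPM in KD4 against 62.2 and 59.8 TPM in KD9, and with uniquely mapped reads the values of such copies are uncertain.

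The sensors and regulators differed in the same direction. Zbp1, a sensor of Z-form nucleic acid, had 1.76 and 1.47 TPM in KD4 and 27.6 and 27.6 TPM in KD9, a difference of -4.02. Irf7, the transcription factor that amplifies type I interferon production, had 7.22 and 7.11 TPM in KD4 against 65.5 and 65.1 TPM in KD9. Stat2 and Irf9, which transmit the interferon signal to the nucleus, had smaller differences, -1.53 for Stat2 and -1.06 for Irf9. The RNA sensors Ddx58 (RIG-I) and Ifih1 (MDA5) differed by -1.11 and -2.03. Only Ifi27 on the list missed the 2-fold rule, at 49.3 and 46.9 TPM in KD4 and 79.99 and 78.5 TPM in KD9.

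Genes that load peptides onto MHC class I were lower in KD4 without exception on the list, 13 of 13 by the 2-fold rule, with a median difference of -1.91. The share over all genes was 4.90%. B2m, the light chain of MHC class I, had 572 and 565 TPM in KD4 and 2265 and 2174 TPM in KD9. The heavy chains H2-K1 and H2-D1 differed by -2.32 and -1.91, and H2-T23, which encodes the class Ib molecule Qa-1, by -3.65. The peptide transporters Tap1 and Tap2 differed by -2.01 and -1.39, and the immunoproteasome subunits Psmb8, Psmb9 and Psmb10 by -2.43, -1.78 and -1.33. Nlrc5, the transactivator of class I genes, had 1.22 and 1.25 TPM in KD4 and 4.38 and 4.24 TPM in KD9. The H2 genes resemble each other, so their single values are less certain than the direction they share.

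Secreted signals followed. Of 15 chemokines, interleukins and related cytokines on the list, 11 were over 2-fold lower in KD4, where the share over all genes was 4.90%. None was higher, and the median was -1.87. Il6, an inflammatory cytokine, had 4.58 and 5.01 TPM in KD4 and 58.5 and 57.2 TPM in KD9. The neutrophil attractants Cxcl1 and Cxcl5 differed by -2.94 and -3.07, and Ccl2, which attracts monocytes, had 245 and 260 TPM in KD4 against 889 and 848 TPM in KD9. Lif, the cytokine that supports mouse ESC self-renewal, had 37.3 and 35.8 TPM in KD4 and 128 and 129 TPM in KD9. Ccl8 was listed at 0 in both KD4 columns and at 1.29 and 1.82 TPM in KD9, so it reached the minimum only through its KD9 columns. Csf1, Cxcl12, Cxcl16 and Ccl20 missed the rule, with differences of -0.14, -0.71, -0.73 and -1.03.

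**Figure D2:**
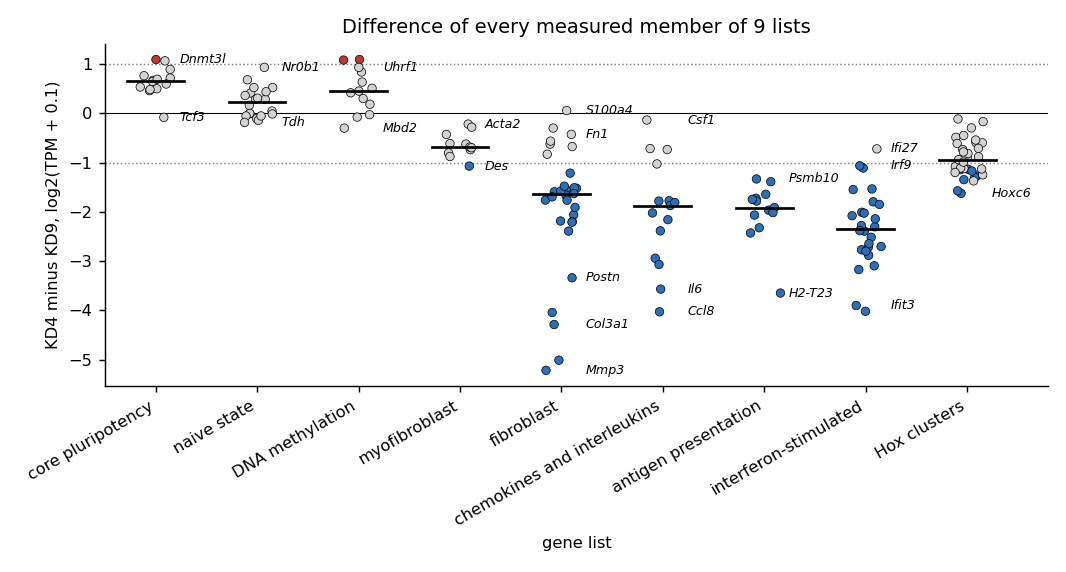
Difference between KD4 and KD9 (vertical axis, log2 of TPM plus 0.1; above 0 is higher in KD4) for each measured member of 9 gene lists. Each point is a gene, black bars are list medians, and blue and red points passed the 2-fold rule in every pair of columns. The interferon-stimulated list has its median at -2.34 and the core pluripotency list at 0.66, and the fibroblast list stretches between Mmp3 at -5.22 and S100a4 at 0.06.

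Fibroblast genes were lower in KD4, but by very unequal amounts. Of 30 on the list, 23 passed the 2-fold rule as lower in KD4, where the share over all genes was 4.90%. None passed as higher, and the median difference was -1.65. The list summed to 4363 and 4646 TPM in the KD4 columns and to 8882 and 8645 TPM in the KD9 columns, so fibroblast transcripts were abundant in both cultures and none of the 30 was at 0. The fibroblast list was lower in KD4 together with the immune lists above, and its part in these and in the other differences was not tested. In bulk RNA, fewer fibroblasts and lower levels of a given gene per fibroblast cannot be told apart.

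The widest gaps were in secreted matrix proteins and their proteases. Mmp3 (stromelysin), a protease of the matrix, had 3.45 and 2.04 TPM in KD4 and 103 and 102 TPM in KD9, a difference of -5.22. Lum (lumican), a small proteoglycan that binds collagen fibrils, had 0.287 and 0.310 TPM in KD4 and 13.4 and 12.2 TPM in KD9. Col3a1, the chain of type III collagen, had 6.14 and 6.66 TPM in KD4 against 125 and 128 TPM in KD9, and Dcn (decorin) had 2.47 and 2.21 TPM in KD4 against 39.7 and 40.4 TPM in KD9. Each of these genes was more than 10-fold apart between the lines, and the columns of a line lay close together except for Mmp3 in KD4, whose columns differed by 0.73 on the log2 scale. The miRNA annotation Gm47302 lies inside Col3a1 on the same strand and showed 15.6 and 20.7 TPM in KD4 and 476 and 531 TPM in KD9, so the values of both are uncertain.

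The chains of type I collagen, the main fibrillar collagen of fibroblasts, stood in the middle. Col1a1 had 182 and 184 TPM in KD4 and 767 and 760 TPM in KD9, a difference of -2.06, and Col1a2 differed by -2.19. Thy1, a surface marker of fibroblasts, had 49.9 and 50.3 TPM in KD4 and 160 and 165 TPM in KD9, and the growth factor receptors Pdgfra and Pdgfrb differed by -1.76 and -1.91. At the other end, Fn1 (fibronectin) had 759 and 735 TPM in KD4 and 1016 and 992 TPM in KD9, a difference of only -0.43, and Vim (vimentin) differed by -0.56. S100a4 overlapped between the lines, at 61.6 and 91.5 TPM in KD4 and 68.4 and 76.1 TPM in KD9.

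The contractile genes of myofibroblasts belonged to that end too. Of 11 measured, only Des, the muscle intermediate filament, was lower in KD4 by the rule, where the share over all genes was 4.90%. Des had 5.39 and 5.30 TPM in KD4 and 11.0 and 11.6 TPM in KD9. The list median was -0.68, and all 11 had KD4 columns below the KD9 columns, where the share over all genes was 29.8%. Acta2 (smooth muscle actin) had 661 and 680 TPM in KD4 and 790 and 769 TPM in KD9, a difference of -0.22, beside -4.29 for Col3a1.

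**Figure D3:**
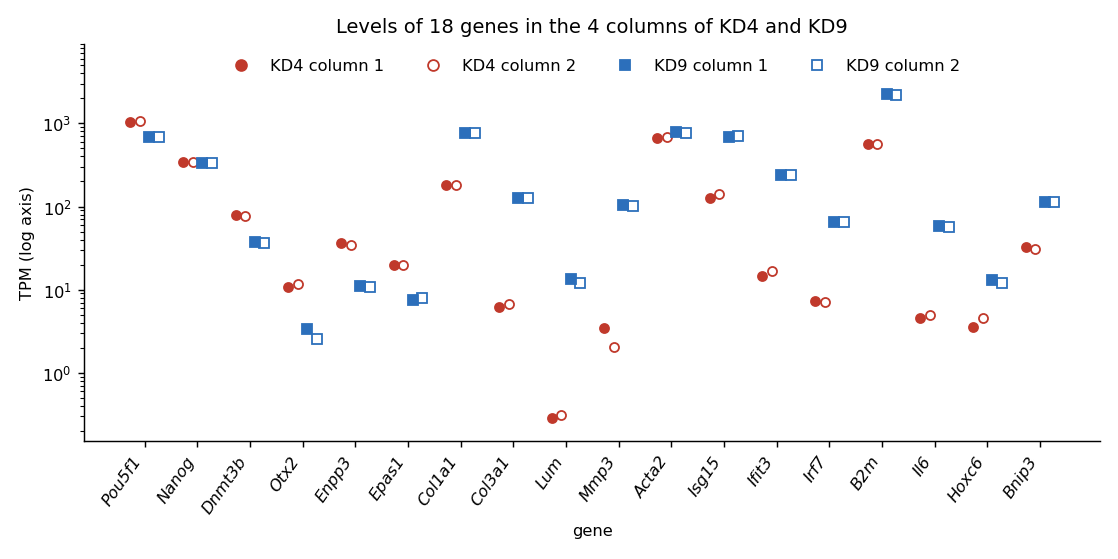
Levels of 18 genes (TPM, log axis) in KD4 column 1 and column 2 (red circles) and KD9 column 1 and column 2 (blue squares). Nanog stays near 340 TPM in all 4 columns and Acta2 between 661 and 790 TPM, while Col3a1, Lum and Mmp3 lie more than 10-fold lower in the KD4 columns.

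Markers of other cells that a culture with feeders could hold were looked at as well. Of 12 macrophage and blood genes, 10 passed the minimum and 7 of those were over 2-fold lower in KD4. The share over all genes was 4.90%, and the median of these 10 was -2.02. Lyz2, the lysozyme of macrophages, had 6.85 and 7.41 TPM in KD4 and 39.2 and 35.7 TPM in KD9. C1qa, a complement subunit, was listed at 0 in both KD4 columns against 1.27 and 2.15 TPM in KD9. C1qa thus reached the minimum only through its KD9 columns, and it counts among the genes lower in KD4. The pan-leukocyte gene Ptprc (CD45) was at or under 0.0762 TPM in every column, and the list as a whole summed to 42.0 and 47.5 TPM in KD4 and 95.2 and 88.5 TPM in KD9. Cd68 overlapped between the lines, at 26.1 and 30.1 TPM in KD4 and 29.0 and 27.96 TPM in KD9. At a mean of 5 TPM or more the median of the list was -0.35, from the few genes left. None of the 5 endothelial genes measured and none of the 3 keratinocyte genes passed the rule in either direction, and of 9 skeletal muscle genes only Acta1 was above the minimum, at 15.1 and 16.2 TPM in KD4 and 9.80 and 9.81 TPM in KD9.

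Homeobox genes of the Hox clusters, which carry positional identity in fibroblasts and are low in ESCs, were lower in KD4 throughout. Of 33 measured, 32 had both KD4 columns below both KD9 columns, where the share over all genes was 29.8%. By the 2-fold rule 8 were lower in KD4, against 4.90% of all genes, and none was higher. Hoxc6 had 3.58 and 4.52 TPM in KD4 and 13.1 and 12.1 TPM in KD9, and Hoxb9, the most abundant, had 12.4 and 12.7 TPM in KD4 and 24.7 and 23.7 TPM in KD9. The list median was -0.94.

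Genes of the immediate early response, which cells switch on within minutes of growth factors or handling, formed a further group. Of 22 measured, 10 were over 2-fold lower in KD4, where the share over all genes was 4.90%. None was higher, and the median was -0.66. Fos had 177 and 176 TPM in KD4 and 410 and 400 TPM in KD9, Egr1 had 87.9 and 77.9 TPM in KD4 and 267 and 266 TPM in KD9, and Jun differed by -1.60. Without overlap 17 of the 22 were lower in KD4 and 5 higher, where the shares over all genes were 29.8% and 38.8%. Spry4 and Etv5, which report FGF and ERK signalling in ESCs, were higher in KD4. Spry4 had 52.3 and 51.2 TPM in KD4 and 28.5 and 28.6 TPM in KD9, and Etv5 differed by 0.49. Myc, at 65.7 and 70.1 TPM in KD4 and 71.3 and 70.9 TPM in KD9, differed by -0.07.

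Targets of hypoxia signalling were unevenly lower in KD4. Of 22 genes of glycolysis and hypoxia, 5 passed the rule as lower in KD4, where the share over all genes was 4.90%. None passed as higher, and the median was -0.54. Bnip3, a mitophagy receptor, had 32.4 and 31.0 TPM in KD4 and 112 and 115 TPM in KD9, Ldha (lactate dehydrogenase A) had 209 and 220 TPM in KD4 and 459 and 448 TPM in KD9, and Adm, Egln3 and Ankrd37 differed by -1.44, -1.32 and -1.49. Pdk1, another target of this pathway, was at 49.5 and 49.7 TPM in KD4 and 37.7 and 36.5 TPM in KD9. Epas1, which encodes HIF-2α, was among the 15 genes with the largest gap in the other direction, at 19.9 and 19.6 TPM in KD4 and 7.50 and 7.87 TPM in KD9.

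Of 20 targets of p53, 3 were lower in KD4 by the rule, where the share over all genes was 4.90%. Cdkn1a (p21), the inhibitor of cyclin-dependent kinases, had 105 and 104 TPM in KD4 and 236 and 237 TPM in KD9, Btg2 differed by -1.93 and the death receptor Fas by -2.32. The median of the list was -0.31, and Bax, Bbc3, Aen and Sesn1 overlapped between the lines. Among 12 cyclins and inhibitors, Cdkn1a alone passed. Cdkn2a and Cdkn2b, both known to build up in cultured fibroblasts, differed by -0.63 and -1.03, while the cyclins Ccnb1, Ccna2 and Ccne1 differed by 0.44, 0.44 and 0.54.

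Imprinted genes, which are expressed from 1 parental copy, had a median of 0.15. Of 30, 4 were lower in KD4 by the rule, where the share over all genes was 4.90%. H19 and its neighbour Igf2 were lower together, H19 at 63.5 and 76.7 TPM in KD4 and 164 and 160 TPM in KD9, and Igf2 at 52.5 and 59.5 TPM in KD4 and 179 and 176 TPM in KD9. Dlk1 differed by -1.41 and the antisense transcript Airn by -1.66. In the opposite direction, Snrpn had 174 and 177 TPM in KD4 and 102 and 93.1 TPM in KD9, and Nespas differed by 0.85. Meg3, which shares the Dlk1 domain, differed by -0.34.

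The pluripotency genes were higher in KD4, within 2-fold for most. Of 14 core genes, 13 had both KD4 columns above both KD9 columns, where the share over all genes was 38.8%. By the 2-fold rule 1, Dnmt3l, was higher, where the share over all genes was 0.841%. Pou5f1 had 1025 and 1060 TPM in KD4 and 686 and 693 TPM in KD9, a difference of 0.60, and Sox2 had 446 and 525 TPM in KD4 and 330 and 337 TPM in KD9. Utf1, a chromatin factor of ESCs, differed by 1.07 and Lin28a, which binds let-7 precursors, by 0.46. The list median was 0.66, with 0.65 to 0.68 over the pairs of columns.

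Genes of the naive state did not share one difference. Nanog was at 347 and 347 TPM in KD4 and 337 and 335 TPM in KD9, a difference of 0.05. Klf4 differed by -0.11 and Tfcp2l1 by -0.05, and Klf2, Tbx3 and Prdm14 overlapped between the lines. Other naive genes were higher in KD4 without overlap, among them Nr0b1 with 442 and 470 TPM in KD4 and 237 and 240 TPM in KD9, Fgf4 with a difference of 0.68 and Klf5 with 0.52. None of the 20 passed the 2-fold rule, and the median was 0.22.

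The formative state follows the naive state on the way to differentiation. Of its 13 genes measured here, 8 were higher in KD4 without overlap, where the share over all genes was 38.8%. Otx2, the homeobox factor that drives exit from the naive state, had 10.8 and 11.6 TPM in KD4 and 3.37 and 2.58 TPM in KD9, a difference of 1.89. Dnmt3b, a de novo DNA methyltransferase, had 78.8 and 76.7 TPM in KD4 and 37.0 and 36.3 TPM in KD9. Zic2 and Zic5 differed by 0.98 and 0.97 and missed the rule. Pou3f1 (Oct6) overlapped between the lines, at 5.16 and 5.79 TPM in KD4 and 5.04 and 5.56 TPM in KD9, and Sox4 and Sall2 were lower in KD4, by -0.44 and -0.77. Of 13 formative and primed genes measured, 2 passed as higher and none as lower, with a median of 0.51. The shares over all genes were 0.841% and 4.90%. Fgf5, the usual marker of primed cells, was below the minimum, at 0.481 and 0.253 TPM in KD4 and 0.164 and 0.260 TPM in KD9.

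DNA methylation genes were higher in KD4 in 9 of 13 cases without overlap, where the share over all genes was 38.8%, and 2 passed the rule, where it was 0.841%. The median was 0.45. Dnmt3l, the cofactor of the de novo enzymes, had 362 and 373 TPM in KD4 and 174 and 171 TPM in KD9. Dnmt3l is on the core pluripotency list as well, and Dnmt3b, Dnmt3a and Tet3 are on the formative and primed list. The counts of these lists are therefore not separate. Uhrf1, which guides maintenance methylation, had 214 and 219 TPM in KD4 and 114 and 113 TPM in KD9, and Tet1, which oxidises methylcytosine, differed by 0.84. The enzyme Dnmt3a differed by 0.51 and Tet3 by -0.03. Polycomb genes had a median of 0.28, and none of 23 passed the rule. The largest difference among them was that of Jarid2, a cofactor of Polycomb complex PRC2, with 168 and 178 TPM in KD4 and 83.7 and 87.9 TPM in KD9. Ezh2, the methyltransferase of PRC2, differed by 0.51, and Ring1, a ubiquitin ligase of the PRC1 complex, overlapped between the lines.

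Beyond the lists, the 15 genes with the widest gap as higher in KD4 among those with a mean of 5 TPM or more included Liph, a phospholipase, with 9.08 and 9.64 TPM in KD4 and 2.82 and 2.43 TPM in KD9, and Enpp3, an ectoenzyme that splits nucleotides, with 36.0 and 34.0 TPM in KD4 and 11.0 and 10.7 TPM in KD9. The adaptor Dok2 and the transcription factor Myrf differed by 1.35 and 1.30. On the X chromosome, Rhox6, a homeobox gene, had 17.7 and 16.8 TPM in KD4 and 4.64 and 6.63 TPM in KD9, and Pcsk1n had 26.3 and 28.1 TPM in KD4 and 10.4 and 11.1 TPM in KD9. Pcsk1n overlaps Eras, a Ras gene of ESCs, on the opposite strand, Eras differed by 1.39, and the values of such a pair are uncertain without strand. Short annotations inside a longer host gene were among the 15 as well, namely Mir7026 within Ep400 and the snRNA Gm22333 within Fastk. Only 51 of the 166 genes higher in KD4 were protein coding (30.7%), against 713 of the 967 lower genes (73.7%) and 70.5% of all genes compared. Gm17374 and Mir7688, chosen after their values were seen, were listed at 0 in both KD9 columns, with 6.88 and 6.21 TPM and 7.16 and 11.3 TPM in KD4.

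The 15 genes with the widest gap as lower in KD4 were Lum, Mmp3, Gm47302, Col3a1, Ifit3b, Dcn, Zbp1, Ifit3, Gm20488, Medag, H2-T23, Iigp1, Ly6a, Il6 and Lcn2. Iigp1, an interferon-induced GTPase, had 1.27 and 0.957 TPM in KD4 and 15.7 and 15.7 TPM in KD9, and Ly6a (Sca-1) had 2.58 and 2.73 TPM in KD4 and 31.9 and 33.9 TPM in KD9. Lcn2, an iron-sequestering protein of inflammation, had 1.30 and 1.497 TPM in KD4 and 16.9 and 16.8 TPM in KD9. Medag had 1.06 and 1.06 TPM in KD4 and 14.9 and 14.1 TPM in KD9, and Gm20488 overlaps it on the same strand, so the values of both are uncertain. Further proteases, Mmp13, Mmp9 and Mmp10, picked after their values were seen, differed by -2.70, -2.52 and -2.56.

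**Figure D4:**
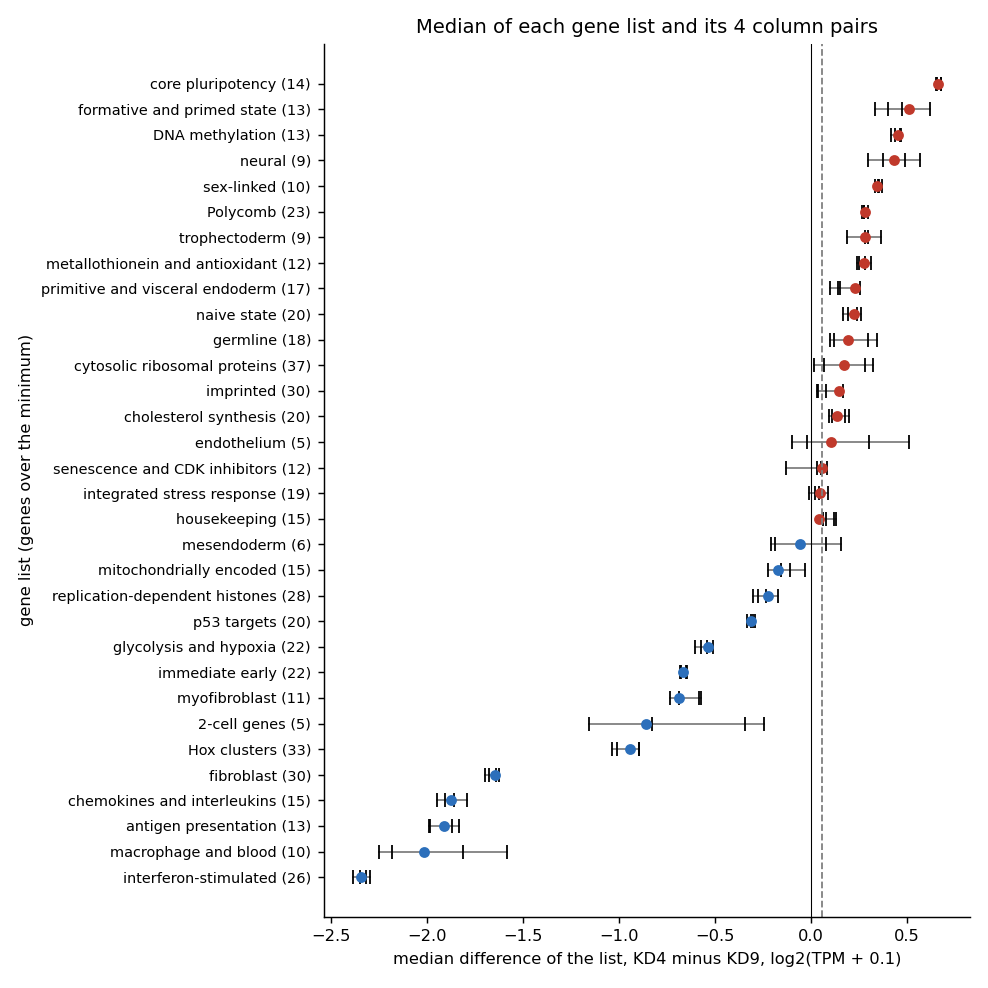
Median difference of each gene list with at least 5 measured genes (horizontal axis, KD4 minus KD9 on log2 of TPM plus 0.1), with the number of genes in parentheses. Dots are the medians, ticks the medians of the 4 pairs of columns, and the dashed line the median of all genes at 0.06. The interferon-stimulated list lies lowest at -2.34 and the core pluripotency list highest at 0.66, and the pairs of columns spread widest for the 2-cell and macrophage lists.

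The genes that the shRNAs target were too low to separate the lines. None of the 5 reached the minimum, and in sum they had 0.651 and 0.591 TPM in KD4 and 1.51 and 0.683 TPM in KD9, beside 4.66 TPM in the control. Usp17le had 0.151 and 0.0637 TPM in KD4 and 0.331 and 0.374 TPM in KD9, the only member whose columns did not overlap. Usp17la had 0.189 and 0.0477 TPM in KD4 and 0.248 and 0.0700 TPM in KD9, Usp17lb had 0.128 and 0.325 TPM in KD4 and 0.421 and 0.238 TPM in KD9, Usp17lc had 0.0817 and 0.155 TPM in KD4 and 0.302 and 0 TPM in KD9, and Usp17ld had 0.101 and 0 TPM in KD4 and 0.207 and 0 TPM in KD9. The 5 genes share identical stretches, so uniquely mapped reads cannot give the full level of any of them.

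Genes of the 2-cell program were near the limit of the table. Of 20, 5 passed the minimum, and all 5 had both KD4 columns below both KD9 columns, where the share over all genes was 29.8%. By the rule 1 of the 5, Zscan4d, was lower in KD4, where the share over all genes was 4.90%. Zscan4d had 0.265 and 0.279 TPM in KD4 and 0.869 and 0.737 TPM in KD9. Zscan4d reached the minimum only through its KD9 columns. All 20 together summed to 6.01 and 3.83 TPM in KD4 and 10.02 and 9.08 TPM in KD9. Gm4340 shows how far single columns can part at this level, with 1.31 and 0.194 TPM in KD4 and 1.51 and 1.57 TPM in KD9. The median over the 5 genes, -0.86, ranged between -1.15 and -0.25 over the pairs of columns. Without the minimum the median of the list was -0.44. Near-identical copies make the single values in this family uncertain.

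Lineage genes showed scattered differences. Among 17 genes of primitive and visceral endoderm, the endocytic receptors Cubn and Lrp2 were higher in KD4 by the rule, Lrp2 at 9.15 and 8.71 TPM in KD4 and 4.17 and 3.96 TPM in KD9, and Dab2 and Plat were lower, by -1.03 and -2.62. Apoe had 1129 and 1225 TPM in KD4 and 801 and 787 TPM in KD9, while Col4a1 and Col4a2 of the basement membrane differed by -0.82 and -0.95. Among 9 neural genes, Zic1 was lower in KD4, at 2.15 and 2.25 TPM in KD4 and 6.64 and 6.04 TPM in KD9, and Sox1 and Pax6 differed by 0.91 and 0.81. None of 9 trophectoderm genes and none of 6 mesendoderm genes passed the rule in either direction. Over all genes the shares by this rule were 0.841% higher and 4.90% lower.

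Several other programs had few or no genes past the rule. The integrated stress response had a median of 0.04 with none of 19 genes past the rule, and its factor Atf4 overlapped, at 529 and 558 TPM in KD4 and 533 and 522 TPM in KD9. Cholesterol synthesis had a median of 0.14, with 1 of 20 genes lower in KD4 by the rule and none higher. Metallothionein and antioxidant genes had a median of 0.28. Of 12, 8 were higher in KD4 without overlap, where the share over all genes was 38.8%. Only Gpx3 passed the rule, as lower in KD4, at 22.6 and 20.2 TPM in KD4 and 54.7 and 49.5 TPM in KD9. The germline list had a median of 0.19 with none of 18 past the rule, the housekeeping list 0.04 with none of 15, and the mitochondrially encoded list -0.17 with none of 15. Of 28 replication-dependent histone genes, 2 were higher and 2 lower by the rule, and 13 overlapped. Without overlap 4 were higher and 11 lower, where the shares over all genes were 38.8% and 29.8%. By the 2-fold rule the shares over all genes were 0.841% higher and 4.90% lower.

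The median difference of the 19 autosomes lay between 0.01 and 0.08, and the share of genes lower in KD4 ranged between 3.52% and 7.63%, with 0% to 1.52% higher. The X chromosome lay just outside these ranges, with a median of 0.10 over 655 genes, 2.44% lower in KD4 and 1.83% higher. The 10 genes measured on the Y chromosome had a median of 0.18, and the 37 of the mitochondrial genome had -0.06 with none past the rule. The Y-linked genes were expressed in both cultures but did not move together. Ddx3y had 15.5 and 16.2 TPM in KD4 and 9.21 and 9.60 TPM in KD9, and Uty had 4.74 and 4.53 TPM in KD4 and 1.79 and 1.5004 TPM in KD9, whereas Eif2s3y had 3.97 and 4.38 TPM in KD4 and 5.75 and 5.50 TPM in KD9, and Kdm5d had 0.562 and 0.568 TPM in KD4 and 0.911 and 0.956 TPM in KD9. Xist, the RNA of the inactive X chromosome, had 14.1 and 13.1 TPM in KD4 and 19.98 and 21.5 TPM in KD9, and its antisense partner Tsix had 8.71 and 8.82 TPM in KD4 and 5.98 and 6.32 TPM in KD9. Without strand in the counting, the reads of Xist and Tsix cannot be told apart.

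Some differences belonged to 1 column and not to a line. A column was called apart at a gene when it differed by more than 2-fold in the same direction from each of the other 3. KD4 column 2 was apart at 57 genes upward and 78 downward among those with a mean of 5 TPM or more, against 13 and 27 for KD4 column 1, 5 and 13 for KD9 column 1 and 10 and 19 for KD9 column 2. Of the genes apart in KD4 column 2, 41 of the 57 and 35 of the 78 were processed pseudogenes, and 3 in each direction were protein coding. Gm7336, a processed pseudogene, had 339 and 58.9 TPM in KD4 and 289 and 291 TPM in KD9, and Gm8129 had 34.8 and 171 TPM in KD4 and 38.2 and 30.6 TPM in KD9.

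Short and repeated genes parted most between the columns of a line. Among processed pseudogenes, 31.0% were over 2-fold apart between the KD4 columns and 16.1% between the KD9 columns, among miRNA genes 37.1% and 33.0%, and among snRNA genes 54.4% and 55.3%. Among 13905 protein-coding genes it was 1.41% in KD4 and 0.755% in KD9. The sequence-related genes Dppa5b and Dppa5c, annotated as pseudogenes, were high in KD4 column 1 alone, Dppa5c at 33.7 and 5.46 TPM in KD4 and 9.45 and 9.89 TPM in KD9, while the parent gene Dppa5a had 2503 and 2367 TPM in KD4 and 1981 and 2011 TPM in KD9.

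**Figure D5:**
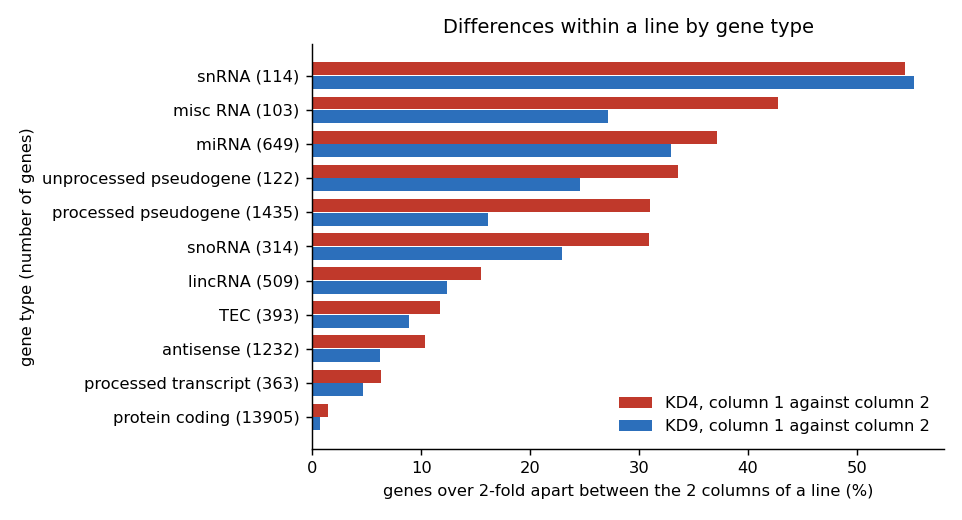
Share of genes over 2-fold apart between the 2 columns of the same line (horizontal axis, %), by annotated gene type, for KD4 (red) and KD9 (blue), with the number of genes in parentheses. Protein-coding genes are at 1.41% in KD4 and 0.755% in KD9, processed pseudogenes at 31.0% and 16.1%.

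KD4 column 2 was also highest in the sum of the ribosomal protein genes. The 37 cytosolic ribosomal protein genes summed to 52761 and 62449 TPM in KD4 and to 51197 and 49585 TPM in KD9, and their median was 0.17, with 0.02 to 0.32 over the pairs of columns. Rpl37 had 576 and 899 TPM in KD4 and 607 and 553 TPM in KD9. Gapdh, which has many processed pseudogenes, had 78.4 and 48.6 TPM in KD4 and 75.0 and 78.2 TPM in KD9, below Pgk1 of the same pathway at 438 and 426 TPM in KD4 and 738 and 710 TPM in KD9. None of the ribosomal protein genes passed the 2-fold rule, and 15 of 37 overlapped between the lines.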

How the data were processed

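RNA was measured by RNA-seq in E3 mouse ESCs. Per the labels and methods, poly(A) RNA libraries were sequenced on Illumina machines, reads were trimmed with Trim Galore, aligned to mm10 with HISAT2 and counted with featureCounts using uniquely mapped reads, and the authors deposited TPM values. featureCounts was run with default parameters, which ignore strand and leave out reads that overlap several genes. Versions and annotation are not given in the sources used here. Each column sums to the same total TPM, so depth is unknown. Columns KD4 1 and 2 and KD9 1 and 2 were used. The control column served for the target genes only, and 1 per-sample column was not used, as it matches no labelled sample. The study's legends call the columns biological replicates, but the labels name 1 sample per line.

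Values were set as log2(TPM + 0.1) for genes with a mean of 0.5 TPM or more. Named genes were the target genes, the 15 genes per direction with the widest gap over the 4 pairs of columns at a mean of 5 TPM or more, up to 6 abundant members of each list plus those past 2-fold, the genes standing farthest apart in each column, and identity markers. Others are named as picked after seeing values. Some genes that this rule names are not reported here. The lists, 35 in all, and the comparison were chosen with earlier results of these data known. Of the row names, 32233 matched GENCODE M21, and 24 that are dates did not. The every-pair rule and limma were run on simulated data with large planted differences and noise taken from the spread between columns. That check does not cover differences near 2-fold or the spread between cultures. Python 3.11.15 with pandas 2.3.3 and limma 3.58.1 in R 4.3.3 were used. Other pseudocounts, filters, scaling, thresholds, columns left out and limma fits were tried. Column numbers did not pair the columns: the r of same-numbered deviations was 0.03 over all genes compared and -0.09 at a mean of 5 TPM or more.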

Additional observations from a re-analysis of the deposited data

How the results depend on the processing

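The labels give 1 sample per line, so columns left out or fitted as libraries speak to the spread between columns and not between cultures. Depth is unknown, and low genes rest on few reads. The counts of 166 genes higher and 967 lower in KD4 changed with these choices. With a pseudocount of 1 they were 65 and 644, and with 0.5 the higher count was 100. Without a filter the higher count was 367, at a mean of 5 TPM or more the counts were 40 and 493, and without Riken, Gm-number and -ps symbols the higher count was 72. With 1.5-fold in every pair they were 698 and 1876, with 3-fold 59 and 470, and with the difference of mean TPM 644 and 1471. Leaving out 1 column at a time gave 378 to 522 higher and 1184 to 1456 lower, since fewer pairs had to agree. Rescaling by median ratios gave 140 and 1019 and moved the median of all genes by -0.05. In limma with a trend, each column as a library, 3058 genes were higher and 2687 lower at an adjusted p under 0.05, with no fold asked, and 119 and 877 of them were shared with the rule; with the column number as a replicate block there were 1333 and 1664. Column numbers do not pair the columns, so the block is only an alternative. After seeing the data, protein-coding genes alone (51 and 713) and columns that do not overlap (7655 and 5880) were added. More genes were lower than higher in KD4 under all of these except non-overlap and limma without the block. Of 34 list medians, 8 took the other sign under at least 1 setting, and 1 of these 8, skeletal muscle with 1 gene, was among the 13 beyond 0.5. No difference among the 30 widest-gap genes changed sign.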
